A study of Homo sapiens with 2 samples.

Results

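The expression of 5 genes that mark blood vessel endothelium or its sprouting was examined: PECAM1, VWF, CDH5, ANGPT2 and ESM1. Each was read through 1 probe, listed by its identifier, so they are 5 of the 20045 named genes and 5 of 47318 measured probes. The identifiers were ILMN_1689518 for PECAM1, ILMN_1752755 for VWF, ILMN_1719236 for CDH5, ILMN_1774207 for ANGPT2 and ILMN_1773262 for ESM1, and the platform annotation paired all 5 with these symbols. RNA came from TIVE-LTC, an established line of telomerase-immortalized endothelial cells from the human umbilical vein, which carries Kaposi's sarcoma-associated herpesvirus (KSHV) as a lasting infection. The vehicle group had 1 array, and the ABC294640 group, treated with 60 µM of this inhibitor of sphingosine kinase 2, had 1 array. Treatment lasted 24 h in both groups, and both groups carried the virus, so an effect of infection is not part of the comparison. The comparison addresses what the inhibitor does to transcript levels in infected cells of this kind. With 1 array per group there was no replicate error and no test between the groups was possible, and so few arrays limit how precise any value below can be. All cells came from 1 line.

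Endothelial cells line blood vessels and are recognised by junction proteins, by storage granules called Weibel-Palade bodies and by the receptors that guide vessel growth. PECAM1 encodes an adhesion molecule of the immunoglobulin family at the contacts between endothelial cells. CDH5 encodes VE-cadherin, the main cadherin of their adherens junctions. VWF encodes von Willebrand factor, a clotting protein kept in Weibel-Palade bodies. ANGPT2 encodes angiopoietin-2, a ligand of the receptor TEK that is stored in the same granules and loosens vessels for remodelling. ESM1 encodes endocan, a secreted proteoglycan typical of the tip cells that lead a sprout. In Kaposi's sarcoma the tumour cells are known to carry endothelial markers, and KSHV infection is known to raise angiopoietin-2 in cultured endothelium.

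None of the 5 probes passed the detection threshold on either array. A probe was taken as detected at a detection p-value under 0.01, that is, when fewer than 1% of the chip's negative control probes were as bright. By this threshold 0 of the 5 probes were detected on at least 1 array, against 38.5% of all 47318 probes. The dimmest probe that passed had 81.2 intensity units for vehicle and 76.2 for ABC294640. The 5 probes lay between 39.4 and 68.6 units over both arrays. The negative controls had an inferred mean of 56.1 ± 8.44 units (SD over control probes) with vehicle and 53.8 ± 7.13 with ABC294640. On each array 4 of the 5 probes were below the control mean, and PECAM1 was the exception on both. These signals do not show that the transcripts were absent, since a probe below the detection threshold gives only an upper limit for its transcript. In RNA from a whole culture, fewer cells with a transcript and less of it per cell cannot be told apart.

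Of the junction genes, PECAM1 had the brightest probe of the 5 on both arrays. Its signal came to 68.6 units for the vehicle culture and 61.6 for the treated one, which is 1.48 and 1.10 SDs above the control means. The detection p-values were 0.0584 and 0.131, meaning that 45 and 101 of the 770 control probes were at least as bright. The vehicle value was thus the nearest of the 5 probes to the threshold and still missed it. The CDH5 probe gave 47.3 units with vehicle and 50.7 with ABC294640. On the vehicle array 681 of 770 controls were as bright as CDH5 (detection p 0.884), and on the ABC294640 array 505 were (detection p 0.656). Both CDH5 values therefore lay below the mean of the controls, by 1.04 and 0.43 SDs.

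Of the genes whose proteins enter Weibel-Palade bodies, the VWF probe gave 50 units with vehicle and 39.4 with ABC294640. Its detection p-values were 0.771 and 0.995, and 766 of 770 controls were at least as bright on the ABC294640 array. There the VWF probe was among the dimmest of the whole array, with 0.266% of all probes below it, against 9.80% with vehicle. The ANGPT2 probe followed the same order, with 52.4 units for vehicle and 43.1 for ABC294640. Its detection p-values were 0.647 and 0.943. Of all probes, 15.9% were dimmer than ANGPT2 with vehicle and 2.16% with ABC294640. The ESM1 probe gave nearly the same signal on both arrays, 49.7 units with vehicle and 50.9 with ABC294640, with detection p-values of 0.782 and 0.649.

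**Figure D1:**
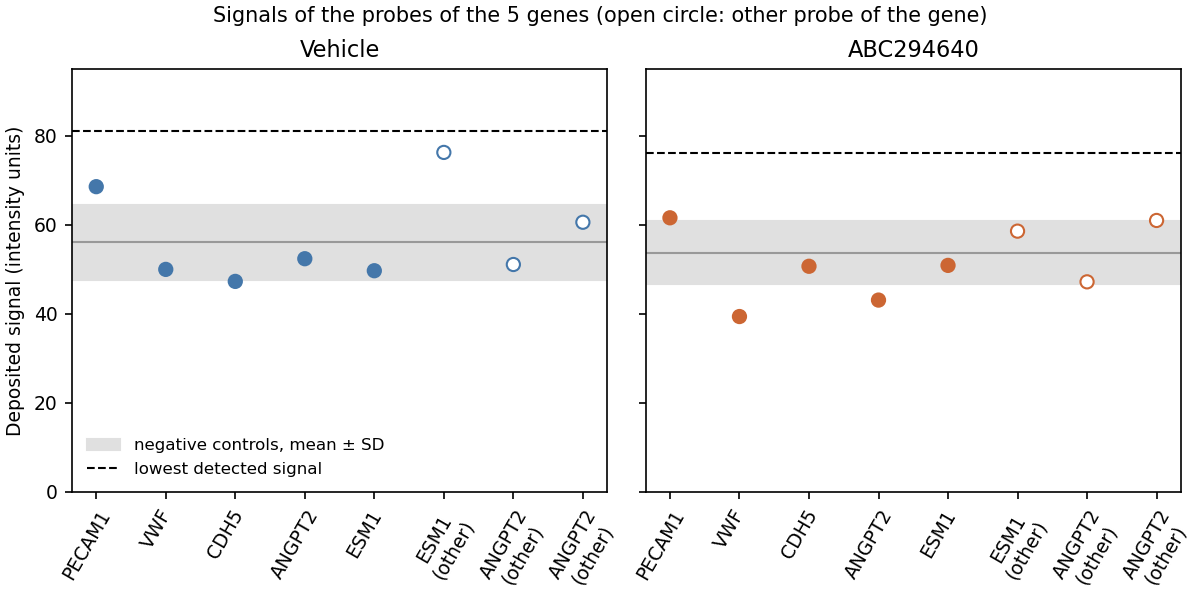
Deposited signal in intensity units (vertical axis) of the 5 probes (filled circles) and of 3 further probes of the same genes (open circles), with the vehicle array on the left and the ABC294640 array on the right; the grey band is the mean ± SD of the negative controls and the dashed line is the lowest detected signal of that array. Every probe lies under the dashed line, at 81.2 units for vehicle and 76.2 for ABC294640, and PECAM1 is the highest filled circle on both arrays.

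The array held 3 further probes for 2 of these genes, and none of them was detected either. The other ESM1 probe (ILMN_2212878) came nearest, with 76.3 units and a detection p-value of 0.0169 with vehicle, where 13 of 770 controls were as bright. With ABC294640 the same ESM1 probe gave 58.6 units and a detection p-value of 0.234. It was thus closer to detection than the ESM1 probe among the members on the vehicle array, and the 2 ESM1 probes differed in the sign of their change. For ANGPT2, ILMN_3250067 gave 51.1 units with vehicle and 47.2 with ABC294640, and ILMN_3250879 gave 60.6 and 61.0. Their detection p-values ran from 0.143 to 0.820. Over all 8 probes of the 5 genes, 0 passed the threshold of 0.01 on either array. PECAM1, VWF and CDH5 were each read by 1 annotated probe only, and whether these probes bind their transcripts well was not tested.

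Because all 5 probes were below detection on both arrays, no fold change is given for any of the 5 genes. The differences are described in intensity units. The signal was lower with ABC294640 for 3 of the 5 probes and higher for 2. The difference, ABC294640 minus vehicle, was -7.0 units for PECAM1, -10.6 for VWF, -9.3 for ANGPT2, 3.4 for CDH5 and 1.2 for ESM1. These sizes were set beside the 1000 probes of nearest mean signal, whose scatter is one between probes and not between replicates. For PECAM1 those probes had a median difference of -4.55 units with a scaled median absolute deviation of 7.93, and 390 of the 1000 had a lower difference than PECAM1. For ESM1 the number was 716, so both genes lay near the middle of the scatter of equally dim probes. For CDH5 it was 849, towards the higher side. VWF was nearer the edge, with a neighbour median of -2.0, a deviation of 4.30 and 36 of 1000 probes lower. For ANGPT2, 82 of 1000 equally dim probes had a lower difference. The ABC294640 array was also the dimmer one at background, where the control mean was lower and the 24081 probes with a detection p-value of 0.05 or more on both arrays had a median difference of -2.60 units (SD over probes 5.87).

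**Figure D2:**
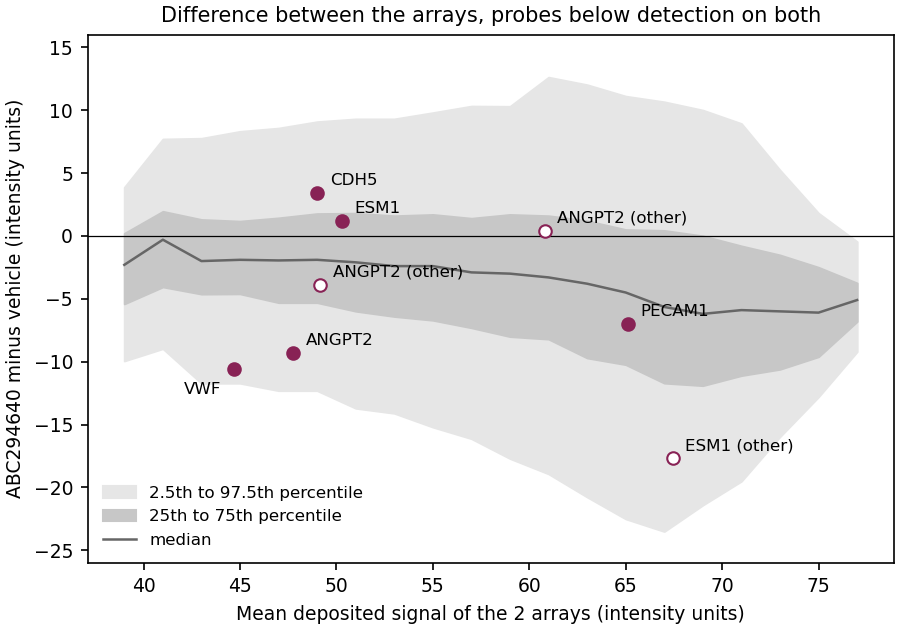
Difference in deposited signal between the arrays (ABC294640 minus vehicle, intensity units, vertical axis) against the mean signal of the 2 arrays (intensity units, horizontal axis), for the 5 probes (filled circles) and the other probes of these genes (open circles); the shading gives percentiles of all probes below detection on both arrays in steps of mean signal. The VWF point at -10.6 units and the ANGPT2 point at -9.3 units lie below the darker band and inside the lighter one, CDH5 at 3.4 units lies above the darker band and inside the lighter one, and PECAM1 at -7.0 units lies in the darker band.

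On background-corrected, quantile-normalized values, which have 1 common distribution on the arrays, no member reached 2-fold in either direction. Over all 18233 probes detected on at least 1 array, 6.96% were at least 2-fold lower and 7.38% at least 2-fold higher. Since all 5 members were below detection on both arrays, their count of 0 says nothing about the transcripts. It was also 0 with an offset of 1 unit in place of the 16 added before taking log2, and without background correction.

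The same picture held for most other markers by which endothelium is recognised. Of 16 endothelial marker genes, PECAM1, VWF and CDH5 included, 3 were detected on at least 1 array, or 18.8%, against 54.3% of all 20045 named genes. The 13 not detected were PECAM1, VWF, CDH5, the VEGF receptors KDR and FLT1, the angiopoietin receptor homologue TIE1, the surface proteins CD34, ESAM, CLDN5 and ROBO4, the secreted factor EGFL7, the nitric oxide synthase NOS3 and the transcription factor ERG. The KDR probe, for example, gave 49.8 units with vehicle and 55.5 with ABC294640. Of the 3 detected markers, ENG, a co-receptor for TGF-beta family ligands, was clearly above background with 181.4 and 176.0 units. ICAM2, an endothelial adhesion molecule, was so too with 162.8 and 135.2. The 75th percentile of all probes was 167.5 units with vehicle and 115.2 with ABC294640, which ENG passed on both arrays and ICAM2 with ABC294640 only. TEK, the receptor that binds angiopoietin-2, passed narrowly with 82.1 units with vehicle and 76.7 with ABC294640, and detection p-values of 0.00909 and 0.00779. Summed over the 24 probes of these 16 genes, the signal was 1608 units with vehicle and 1508 with ABC294640, of which the control mean alone would give 1347 and 1290. These sums include the detected probes of ENG, ICAM2 and TEK, so they do not stand for the markers as a whole. A looser detection threshold of 0.05, chosen after seeing the data, detected 5 of the 16. The share of all named genes at 0.05 was not counted, so the 54.3% does not apply to this count. The cell line is labelled endothelial. By these probes 13 of the 16 endothelial markers did not pass 0.01 on either array, and TEK passed it narrowly. ENG and ICAM2 were well above background.

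Markers of other cell types were read in the same way. Of all named genes 54.3% were detected on at least 1 array. The detected shares of the mesenchymal and blood cell lists were near this value. Those of the epithelial list (14.3%) and the lymphatic list (16.7%) were lower. Of 12 mesenchymal and smooth muscle genes 6 were detected, the brightest being SNAI2, a transcription factor of mesenchymal cells, with 2287 units with vehicle and 1889.6 with ABC294640. TWIST1, another such factor, gave 2268 and 749.5 units, and its log2 ratio of ABC294640 over vehicle was -1.11, which fell short of 2-fold under median scaling. TAGLN, a smooth muscle actin-binding protein, gave 120.2 and 989.7 units and a log2 ratio of 4.17. That ratio ran from 3.34 to 4.55 over the other scaling and background settings, so its size is uncertain. Of the other TAGLN probes, ILMN_1706783 was not detected. ILMN_2400935, detected with ABC294640 alone, gave 57.4 and 94.3 units and a log2 ratio of at least 0.94, in the same direction. ACTA2, also on this list and detected, gave 2175.2 and 1549.7 units and a log2 ratio of -0.07. DCN gave 675.5 and 377.1 units and a log2 ratio of -0.14, and LUM 129.4 and 111.3 units and 0.40. The collagens COL1A1, COL1A2 and COL3A1, with CNN1, PDGFRB and POSTN, were not detected. Of 7 blood cell markers 4 were detected, namely CD68, which many cell types carry in their lysosomes, and the dim CD14, ITGAM and LYZ, while PTPRC, the pan-leukocyte marker, was not. CD14 gave 95.8 and 171.3 units, a log2 ratio of 1.90, and its other probe (ILMN_1740015) was not detected. The CD14 ratio ran from 1.18 to 2.33 over the other settings. CD68 gave 1093.1 and 1099.5 units and a log2 ratio of 0.62. Of the other CD68 probes, ILMN_2359907 gave a log2 ratio of 2.16 and ILMN_2267914 was not detected. Of 7 epithelial markers KRT8 alone was detected, with 204.5 and 334.1 units and a log2 ratio of 1.63, which was short of 2-fold without normalization between the arrays. Of 6 lymphatic endothelial markers only RELN was, while PROX1, PDPN, FLT4, LYVE1 and CCL21 were not. RELN gave 485.1 and 173.3 units and a log2 ratio of -0.92, short of 2-fold. Without normalization between the arrays RELN was past 2-fold lower. Whether these levels bear on the low signals of the 5 genes was not tested.

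**Figure D3:**
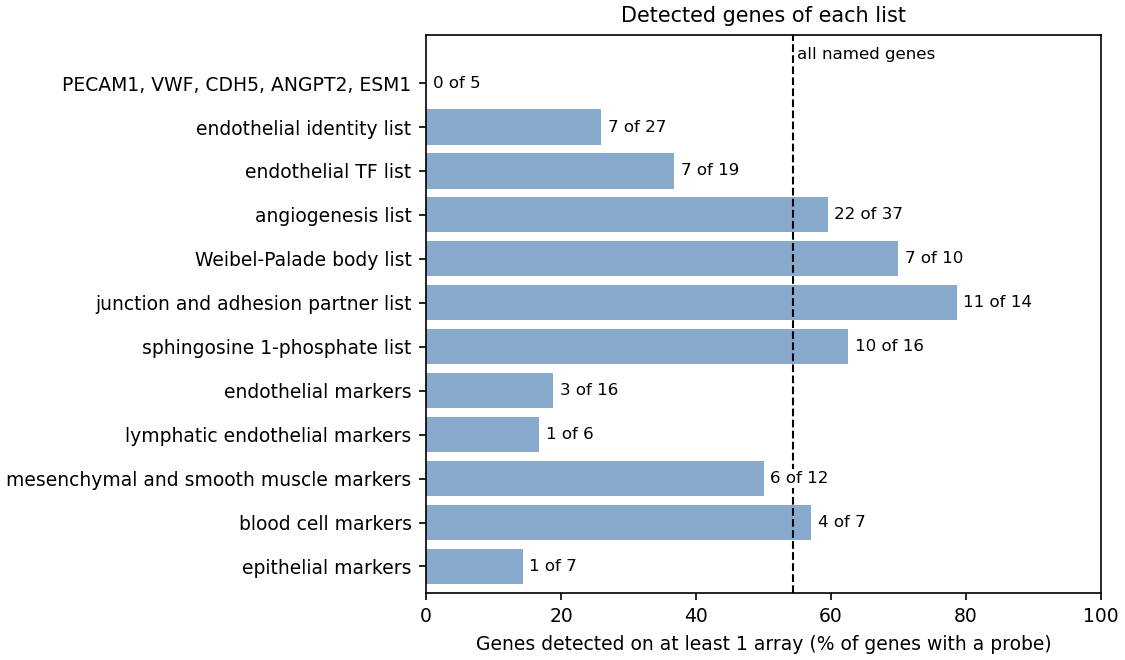
Share of genes with a detected probe on at least 1 array (percent of the genes of a list that have a probe, horizontal axis) for the 5 genes and for each gene list, with the counts beside the bars and the share of all named genes as a dashed line at 54.3%. The 5 genes stand at 0 of 5 and the endothelial markers at 3 of 16, and the junction partners reach 11 of 14.

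The genes around the members were described through 5 lists, of endothelial identity, endothelial transcription factors, angiogenesis, Weibel-Palade bodies and junction partners. Of their 107 genes with a probe, members left out, 54 were detected, or 50.5%, which is close to the 54.3% of all named genes. The shares were unequal: 7 of 27 identity genes, 7 of 19 transcription factors, 22 of 37 angiogenesis genes, 7 of 10 Weibel-Palade body genes and 11 of 14 junction partners. Of the 54 detected genes, 7 were at least 2-fold lower with ABC294640 and 7 at least 2-fold higher, or 13.0% each. The same counts over all 10893 detected named genes gave 8.35% lower and 6.99% higher. The median log2 ratio was 0.11 for the 54 genes and -0.10 for all detected named genes. The scaling set the split: without normalization between the arrays the 54 genes held 13 lower and 3 higher, and with scaling to a common median 5 lower and 10 higher. The median log2 ratio of all detected probes shifted with it, from -0.07 by quantiles to 0.16 by medians and -0.65 with no scaling between arrays.

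Among identity genes none passed 2-fold. The 7 detected genes were PROCR, the endothelial protein C receptor, and, named after their values were seen, S1PR1, JAM2, ENG, ICAM2, MCAM and TEK. PROCR was the brightest, at 648.6 units for vehicle against 402.1 for ABC294640. Its log2 ratio was 0.02 after quantile normalization and turned negative under cyclic loess and without normalization. S1PR1, a receptor for sphingosine 1-phosphate, gave 250.0 and 164.7 units and a log2 ratio of 0.05, and its other probe gave -0.06. All 7 had a lower deposited signal with ABC294640, and all 7 had a normalized ratio above 0, so their direction depended on the scaling. Of all detected named genes 84.0% had a lower deposited signal with ABC294640 and 44.0% a normalized ratio above 0.

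Of the endothelial transcription factors, ERG and FLI1, the ETS-family regulators of many endothelial genes, were not detected by any probe. Neither were TAL1, LMO2, GATA2, SOX7, SOX17 or SOX18. The more widely expressed ETS-family gene ETS1 was the brightest of the list, with 2485 and 1964 units and a log2 ratio of 0.06 that turned negative without normalization between the arrays. The second ETS1 probe (ILMN_2122103) was about as bright and gave -0.11. KLF4, a zinc finger factor that shear stress induces in endothelium, was the single gene of the list past 2-fold. It gave 343.7 units with vehicle and 755.7 with ABC294640, a log2 ratio of 1.97, and its other probe gave 1.82. The ratio of KLF4 stayed between 1.24 and 2.05 over the 8 other scaling and background settings.

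Of the 22 detected angiogenesis genes, 3 were at least 2-fold lower and 4 at least 2-fold higher with ABC294640. Over all detected named genes the shares were 8.35% lower and 6.99% higher. Without normalization between the arrays this list held 6 lower and 2 higher, and under median scaling 3 lower and 6 higher. THBS1, the angiogenesis inhibitor thrombospondin-1, stood lowest, at 6808 units for vehicle and 1253 for ABC294640, a log2 ratio of -2.23 or 4.69-fold lower. NRP1, a co-receptor for VEGF and semaphorins, gave 1463 and 306.0 units and a log2 ratio of -1.72. The other NRP1 probe (ILMN_1742547) disagreed, with 371.3 and 252.3 units and a log2 ratio of 0.17. NOTCH1, a receptor that restrains tip cell formation, gave 669.4 and 214.3 units and a log2 ratio of -1.05, which was short of 2-fold without background correction, with an offset of 50 and in the authors' normalized values.

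On the higher side, HES1, a target gene of Notch signalling, gave 88.7 units with vehicle and 146.4 with ABC294640, a log2 ratio of 1.75. The vehicle signal of HES1 was near the lowest detected one, so the size of its ratio is uncertain. EFNA1, an ephrin ligand, gave 422.4 and 648.6 units and a log2 ratio of 1.41, which was short of 2-fold without normalization between the arrays. The other EFNA1 probe (ILMN_2371053), detected with ABC294640 alone, gave a log2 ratio of at least 0.36. HEY1, another Notch target, named after its value was seen, gave 341.7 and 392.9 units and a log2 ratio of 1.02. HEY1 was short of 2-fold without background correction, with an offset of 50, without normalization between the arrays and in the authors' normalized values. ANGPTL4, a secreted lipase inhibitor related to the angiopoietins, was the brightest gene of the list, with 4424 and 9465 units. Its log2 ratio was 1.10, and the other 2 ANGPTL4 probes gave 2.54 and 2.43. Over the 8 other settings, THBS1, NRP1, NOTCH1, HES1, EFNA1 and ANGPTL4 kept their sign. The ligands and receptors not detected were PGF, ANGPT1, FLT4, PDGFB, APLN, APLNR, DLL1, DLL4, NOTCH4, UNC5B, EPHB4, CXCR4 and CXCL12, and the tip cell genes KCNE3 and NID2 were not detected either.

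**Figure D4:**
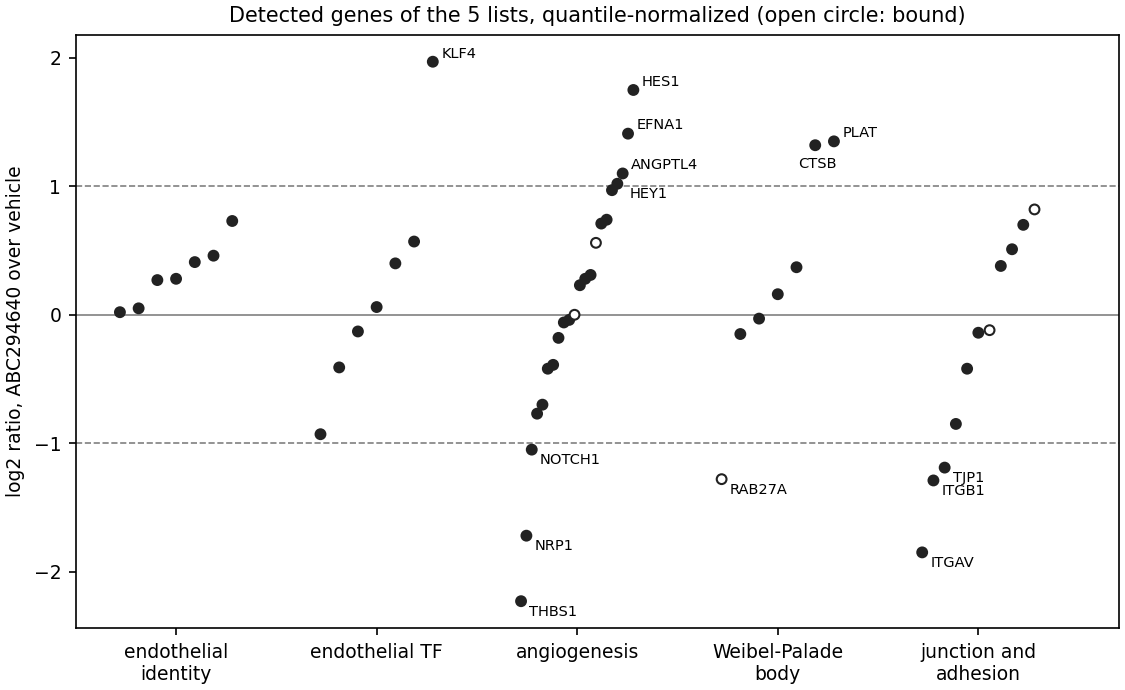
Log2 ratio of ABC294640 over vehicle after quantile normalization (vertical axis) for each detected gene of the 5 lists (horizontal axis), 1 circle per gene with open circles for bounds and dashed lines at 2-fold. THBS1 is lowest at -2.23 and KLF4 highest at 1.97, and the 7 identity genes lie between 0.02 and 0.73.

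Weibel-Palade bodies hold VWF and angiopoietin-2, and 7 of 10 other genes linked to them were detected. P-selectin (SELP), their membrane protein, was not detected, nor were RAB3D and MYRIP. IGFBP7, a secreted protein found in these granules, was the brightest, with 4129.5 and 3251 units and a log2 ratio of -0.15 that turned positive under median scaling. PLAT, tissue plasminogen activator, gave 120.8 and 164.6 units, a log2 ratio of 1.35. CTSB, a lysosomal protease, gave 1307 and 2349.8 units, a log2 ratio of 1.32, but the other CTSB probe gave -0.07. RAB27A, a small GTPase of granule release, gave 180.7 units with vehicle and was not detected with ABC294640 at 74.6 units. It was at least 2.43-fold lower there, a bound set against the lowest detected value or the probe's own value, whichever is higher. The other 3 RAB27A probes were not detected. PLAT and CTSB were short of 2-fold without normalization between the arrays, and PLAT and RAB27A without background correction and in the authors' normalized values. RAB27A was also short of it with an offset of 50, and it drops out where detection on both arrays is required.

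The junction and adhesion partner list held catenins, integrins and other junction genes. Of its 14 genes 11 were detected, or 78.6%, against 54.3% of all named genes. The catenins that bind cadherin tails were among them, and so was N-cadherin (CDH2), with 3672 units with vehicle and 2298 with ABC294640. The endothelial phosphatase PTPRB, which binds VE-cadherin, and PCDH12 and OCLN were not. ITGB1, the beta-1 integrin subunit, was the brightest, with 13976 and 6020.5 units, a log2 ratio of -1.29, and its second bright probe (ILMN_1714820) gave -1.38. Of the other ITGB1 probes, ILMN_1784454 was detected with vehicle alone, at 92.8 units against 74.1 with ABC294640. Its log2 ratio was a bound, -0.01 or lower, and ILMN_1754233 was not detected. ITGAV, the alpha-V subunit, gave 1549 and 300.7 units and a log2 ratio of -1.85. TJP1, a tight junction scaffold, gave 2420 and 762.2 units and a log2 ratio of -1.19, and its other probe gave -0.89. Under median scaling ITGB1 and TJP1 were short of 2-fold and ITGAV was still past it. Among the 1000 probes of most similar brightness, log2 ratios scattered with a scaled median absolute deviation of 0.42 for ITGB1, 0.70 for ITGAV and 0.66 for TJP1, a spread between probes.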

How the data were processed

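Biotin-labelled cRNA was read on Illumina Expression BeadChips, 1 array per group. The authors deposited 1 intensity per probe and array, which their file calls not normalized, and beside it a detection p-value, per the file headers; all of these p-values were whole multiples of 1 in 770, within a tolerance of 0.005 control probes. The submitters' processing notes name GenomeStudio, with version and settings not given in the sources used. A second deposited table of intensity values, linear and uncentred, has a median of 62.2 over the probes used on both arrays and an equal upper quartile. Its normalization method is not stated, and it was used as an alternative. Of 47323 probes, 5 with a signal and detection p-value of 0 on both arrays were left out.

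In R 4.3.3 with limma 3.58.1, the normexp model used control means and SDs inferred from the detection p-values; an offset of 16 was added, log2 taken and the arrays quantile-normalized. The procedure was tested on simulated data. There only probes detected on both arrays were changed, so the test does not cover probes below detection such as the members. A probe detected on 1 array only has a bound. Of the probes used, 30112 had 1 symbol in the platform annotation, 8 several and 17198 none here. A gene was read by its detected probe of highest mean value. Named genes are the members, and from each list those past 2-fold (at most 6) and the brightest; others are stated as named after their values were seen or are listed as markers. The members and lists were chosen with earlier results of these data known.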

Additional observations from a re-analysis of the deposited data

How the results depend on the processing

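The count of 0 members at least 2-fold lower or higher was the same under all 8 other background, offset and scaling settings, measured ratios instead of bounds, a detection threshold of 0.05 and a 3-fold threshold. For the 1.5-fold threshold it was also 0. Since the members were below detection on both arrays, a count that stays at 0 says nothing about their transcripts. The number of members detected was 0 at 0.05 and 1 (PECAM1) at 0.1, a threshold chosen after seeing the data. The log2 differences of the members are no folds, since all 5 were below detection on both arrays. These differences were -0.08 for PECAM1, -0.11 for VWF, 0.09 for CDH5, -0.11 for ANGPT2 and 0.06 for ESM1. Under median scaling they were 0.60, 0.64, 0.83, 0.64 and 0.80 in that order, because this scaling raises all dim probes of the ABC294640 array. With an offset of 1 they were -0.45 for VWF, 0.33 for CDH5, -0.41 for ANGPT2 and 0.22 for ESM1, and by subtraction of the control mean 0.00 for VWF, CDH5, ANGPT2 and ESM1, which the floor of 1 unit sets. VWF was also -0.21 without background correction, -0.04 with an offset of 50, -0.17 without normalization and -0.24 in the authors' normalized values, where ANGPT2 was -0.19. At a detection threshold of 0.05, 5 of the 16 endothelial markers were detected against 3. The share of all named genes at 0.05, and of all probes at 0.1, was not counted. Of the genes of the 5 lists, 13 were lower and 3 higher without normalization, against 7 and 7; their other counts were within 1.5 times. For single lists, 281 counts and medians stayed within 1.5 times or the list's own scatter and 29 did not. No paired analysis was possible because the design has 1 array in either group.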

Other observations

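The enzymes and receptors of sphingosine 1-phosphate, the lipid made by the inhibited kinase, belong to no comparison above. Of 16 such genes with a probe, 10 were detected, or 62.5%, against 54.3% of all named genes. Of these 10, 1 was at least 2-fold higher and 0 at least 2-fold lower with ABC294640. The shares of all detected named genes were 6.99% and 8.35%. SPHK1, the other sphingosine kinase, gave 260.2 units with vehicle and 816.2 with ABC294640, a log2 ratio of 2.52 that ran from 1.82 to 2.64 over the other scaling and background settings. A second SPHK1 probe (ILMN_1774153) was not detected, with 48.3 and 51.3 units. CERS2, a ceramide synthase, was the brightest of the list, with 1649.9 and 1046 units and a log2 ratio of -0.12 that turned positive under median scaling. The receptors S1PR2, S1PR3, S1PR4 and S1PR5 were not detected, and S1PR1 is given with the identity genes. With 1 array per group, none of these differences has a replicate check.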
